A study of Mus musculus with 6 samples.

Results

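The subunits described here are the proteins of mitochondrial respiratory complexes I to IV, the electron carrier cytochrome c and the ATP synthase, complex V. They were taken from a named list of 55 genes, of which 13 are all the messenger RNAs encoded by mitochondrial DNA and 42 are a selection of nuclear genes. All 55 were found among the 27179 gene IDs of each count table, and 54 passed the filter on low counts. Total RNA was sequenced from satellite cells, the muscle stem cells, sorted by flow cytometry (at least 50000 cells per replicate) from muscle of WT C57Bl/6N mice. Mice on a High fat diet (HFD, 3 libraries) were compared with mice on Chow diet (chow, 3 libraries), and the series describes the animals as obese and lean. Diet composition, time on diet, age and sex are not given in the sources used here, nor whether each library came from its own animals, so p-values measure only the spread between these libraries. The sorting markers are likewise not given in those sources.

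The respiratory chain passes electrons from NADH and succinate to oxygen through complexes I, II, III and IV, and complexes I, III and IV pump protons out of the mitochondrial matrix. Complex V uses the returning protons to make ATP. Mitochondrial DNA is transcribed as long precursors from both strands, which are cut into ribosomal RNAs, transfer RNAs and messenger RNAs, whereas complex II is made from nuclear genes alone. Quiescent satellite cells are known for a low mitochondrial content, which grows as the cells activate.

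Because the mitochondrial genome is compact, several of these messages share bases or a single precursor, and counts of neighbours are not independent. The 3 junctions where coding regions overlap by more than 1 base are shown from the reference genome (GRCm38, GENCODE M21), forward strand, 5′ to 3′, with the shared bases in capitals. In ATP8, whose whole gene is chrM:7766-7969, the last 43 bases are also the start of ATP6. The end of ND4L, chrM:10114-10173, shares 7 bases with ND4. The end of ND5, chrM:13506-13565, shares 14 bases with ND6, which lies on the opposite strand.
ATP8: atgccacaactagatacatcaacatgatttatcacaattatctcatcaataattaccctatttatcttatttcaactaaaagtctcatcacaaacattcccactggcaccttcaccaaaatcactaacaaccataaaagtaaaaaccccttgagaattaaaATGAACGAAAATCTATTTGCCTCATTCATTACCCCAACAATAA
ND4L: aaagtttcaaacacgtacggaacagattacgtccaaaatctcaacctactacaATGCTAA
ND5: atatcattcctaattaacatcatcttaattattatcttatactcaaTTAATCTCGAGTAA
Single reads of 75 bases that cover the capitals overlap both annotated genes of a pair, although ND5 and ND6 lie on opposite strands. How such reads, and reads from the opposite strand, were assigned is not given in the sources used here.

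Library totals were 14930394 to 18217818 counts under HFD and 15977166 to 17690342 under chow, and 3 counts correspond to between 0.165 and 0.201 CPM (counts scaled to library size), a limit that covers counting error only. The HFD library 1 and the chow library 3 held fewer detected genes, 13879 and 13655, than the other 4, which held 14939 to 15467. All 10 satellite cell markers were detected, and their summed level was 5302, 4264 and 4325 CPM in the HFD libraries, against 5406, 4641 and 4896 CPM in the chow libraries. The most abundant of them, Sdc4, averaged 1668 ± 281 CPM in HFD libraries and 1991 ± 494 CPM in chow libraries (SD, n = 3 each). Single satellite cell markers differed more than the sum, with log2 fold changes from -0.78 to 0.59. At an unadjusted p under 0.05 in edgeR, 2 of the 10 (Itga7 and Chrdl2) were higher and 3 (Pax7, Myod1 and Megf10) lower, and 0 were called. Pax7, the defining factor of these cells, had 171, 246 and 283 CPM in the HFD libraries, against 369.5, 404 and 429 CPM in the chow libraries, without overlap (log2 fold change -0.78, SE 0.20; adjusted p = 0.180 in edgeR), and was called by DESeq2 (adjusted p = 0.0125) and limma-voom (adjusted p = 0.0281). The part of these differences in the results below was not tested. Markers of further cell types were detected at low to moderate levels. Myofibre markers summed to 38.0, 38.9 and 35.1 CPM in the HFD libraries, against 48.0, 49.9 and 47.1 CPM in the chow libraries, below every chow library in all 3 HFD libraries, and 8 of the 14 averaged under 1 CPM, Ckm among them. Atp2a1, the highest of these, averaged 16.1 ± 11.4 CPM in HFD libraries and 17.1 ± 5.15 CPM in chow libraries (SD, n = 3 each). The part of fibre RNA in the results below was not tested. Fibro-adipogenic markers summed to 1055, 769 and 857 CPM in the HFD libraries, against 876, 661 and 716 CPM in the chow libraries, and endothelial markers to 222, 253 and 349 CPM in the HFD libraries, against 278, 298.5 and 245 CPM in the chow libraries; both overlapped between diets. Gsn led the fibro-adipogenic list with 361 ± 57.6 CPM in HFD libraries and 344 ± 35.0 CPM in chow libraries (SD, n = 3 each), and Tek the endothelial list with 161 ± 26.4 CPM in HFD libraries and 171 ± 58.3 CPM in chow libraries (SD, n = 3 each). Mural markers summed to 86.4, 133 and 162 CPM in the HFD libraries, against 155, 189 and 103 CPM in the chow libraries, leukocyte markers to 25.1, 17.9 and 7.59 CPM in the HFD libraries, against 37.6, 18.9 and 48.8 CPM in the chow libraries. Acta2 led the mural list with 58.5 ± 25.7 CPM in HFD libraries and 52.9 ± 5.29 CPM in chow libraries (SD, n = 3 each), and Cd68 the leukocyte list with 11.3 ± 5.65 CPM in HFD libraries and 22.5 ± 7.81 CPM in chow libraries (SD, n = 3 each), where Adgre1 and C1qa were at 0 counts in every library. Adipocyte markers summed to 42.6, 120.2 and 94.9 CPM in the HFD libraries, against 42.4, 58.2 and 104 CPM in the chow libraries, most of it Fabp4 (85.9 ± 39.6 CPM in HFD libraries and 63.3 ± 31.5 CPM in chow libraries (SD, n = 3 each)), while Plin1 and Lep were at 0 counts in every library. Erythroid markers stayed at or below 1.83 CPM in every library, and Alas2 led them with 0.592 ± 0.979 CPM in HFD libraries and 0.592 ± 1.03 CPM in chow libraries (SD, n = 3 each). In bulk samples, fewer cells of a type and less RNA per cell cannot be told apart.

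All 13 mitochondrially encoded messages had a fitted log2 fold change above 0 in HFD against chow libraries, and none passed the test. The largest differences were in subunits of complex I: ND2 averaged 1.40-fold and ND1 1.37-fold their chow level. Messages of complexes IV and V differed least. In the 42 nuclear genes no common direction was seen. With edgeR's quasi-likelihood test and Benjamini-Hochberg adjustment over all 13202 genes, 0 of the 54 members tested were called at an adjusted p of 0.05, where 0.258% of all genes (34) were, 0.0909% higher and 0.167% lower. At an unadjusted p under 0.05, 6 of 54 members were higher and 0 lower, against 7.65% of all genes in either direction, 3.7% higher and 3.95% lower. DESeq2 called 1 member, ND1, where it called 2.06% of the genes it tested, and limma-voom called 3, ND1, ND2 and ND5, where it called 0.75%. All 4 of these calls were of higher levels under HFD. Calls were more frequent among abundant genes: of the 69 nuclear genes that averaged at least 1000 CPM, DESeq2 called 11 and limma-voom 16, in either direction. A log2 fold change above 0 was found for 49.5% of all genes tested, whose median was -0.01, and for 13 of the 13 mitochondrial messages, whose median was 0.28. These 13 come from shared precursors in the same 6 libraries and are not 13 independent observations.

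ND1, a core subunit of the membrane arm of complex I near the ubiquinone site, had 4299, 5554 and 5531 CPM in the HFD libraries, against 3599, 3750.1 and 3863 CPM in the chow libraries. All 3 HFD libraries lay above all 3 chow libraries. The means were 5128 ± 718 CPM in HFD libraries and 3737 ± 132 CPM in chow libraries (SD, n = 3 each), a log2 fold change of 0.46 (SE 0.13). The unadjusted p of ND1 was 0.00339 in edgeR's quasi-likelihood test. Its adjusted p was 0.268 there, 0.0306 in DESeq2 and 0.00225 in limma-voom, so its call depended on the tool. ND2, a proton-pumping subunit of the same arm, had 3301, 4186 and 4643 CPM in the HFD libraries, against 2353, 3159 and 3166 CPM in the chow libraries. Again the diets did not overlap, although HFD library 1 exceeded the highest chow library by little. The means of ND2 were 4043 ± 682 CPM in HFD libraries and 2893 ± 468 CPM in chow libraries (SD, n = 3 each), with log2 fold change 0.48, SE 0.16 and adjusted p = 0.364 in edgeR, 0.0977 in DESeq2 and 0.0184 in limma-voom. ND5, the most distal of the pumping subunits, had 3938, 5649 and 5412 CPM in the HFD libraries, against 3710.4, 3719.7 and 3781 CPM in the chow libraries. Its chow libraries lay within a narrow band below the lowest HFD library. ND5 averaged 4999.7 ± 927 CPM in HFD libraries and 3737 ± 38.1 CPM in chow libraries (SD, n = 3 each), with log2 fold change 0.42, SE 0.14 and adjusted p = 0.390 in edgeR, 0.111 in DESeq2 and 0.022 in limma-voom. Diets that did not overlap, with HFD higher, were found for 3 of the 13 mitochondrial messages and for 7.42% of all genes tested. Of the 13 messages, 11 averaged at least 1000 CPM. Of the 69 nuclear genes at that level, diets did not overlap for 13 with HFD higher and for 17 with HFD lower.

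**Figure D1:**
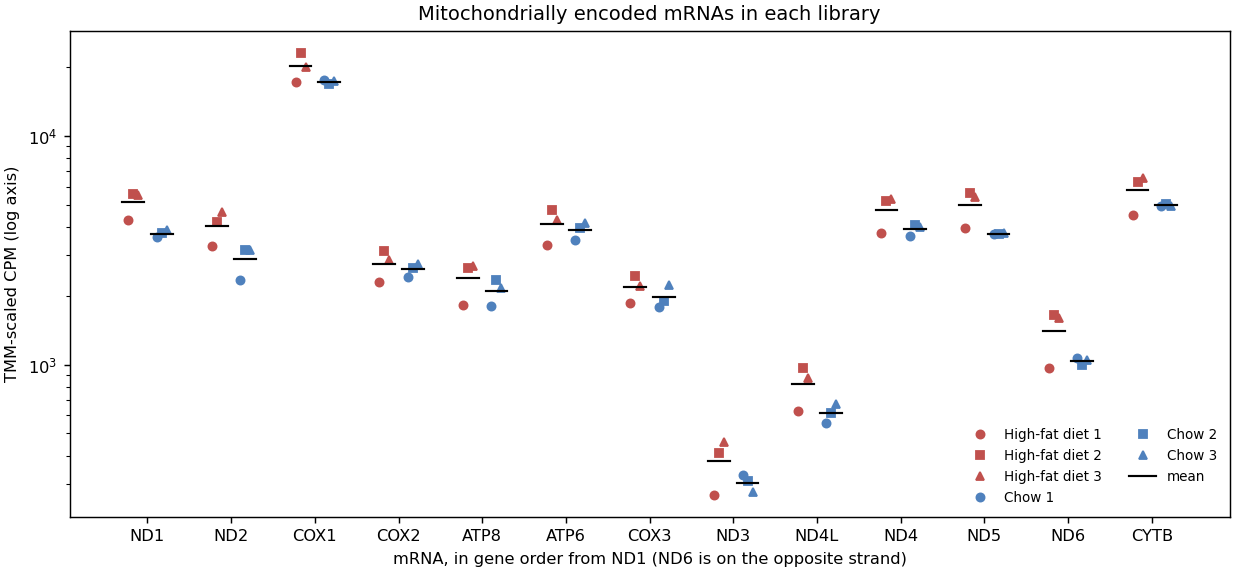
TMM-scaled CPM (log axis) of the 13 mitochondrially encoded messages in each library, in gene order, with HFD libraries left of chow libraries and a bar at each mean. HFD library 1 is the lowest HFD point for each of the 13 messages, and ND1, ND2 and ND5 are the messages whose diets do not overlap.

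The other 4 messages of complex I overlapped between diets. ND4L, a small membrane subunit, had 627, 967 and 875 CPM in the HFD libraries, against 558, 612 and 674 CPM in the chow libraries. Here HFD library 1 fell inside the chow range and the other HFD libraries above it (log2 fold change 0.42, SE 0.18, unadjusted p = 0.0313, adjusted p = 0.570 in edgeR's quasi-likelihood test). ND6, the single message transcribed from the opposite strand, had 969, 1651 and 1591 CPM in the HFD libraries, against 1065, 992 and 1043 CPM in the chow libraries. Its HFD library 1 was below every chow library, while HFD libraries 2 and 3 were above them all. The log2 fold change of ND6 was 0.44 (SE 0.18, unadjusted p = 0.0303, adjusted p = 0.569 in the same test). Strand settings are not given, so RNA of the opposite strand may be part of the ND6 counts, which was not tested. Per kilobase, ND6 had 2705 CPM under HFD and 1991 under chow, and ND5 had 2741 under HFD and 2049 under chow. ND4, the third pumping subunit, had 3777, 5171 and 5323 CPM in the HFD libraries, against 3643, 4086 and 3990.3 CPM in the chow libraries. ND3, a small subunit at the junction of the membrane and matrix arms, had 270.0, 409 and 459 CPM in the HFD libraries, against 329, 309 and 277 CPM in the chow libraries. In both, the HFD library 1 lay inside or below the chow range, with a log2 fold change of 0.28 (SE 0.14) for ND4 and 0.32 (SE 0.20) for ND3. Over the 13 messages, HFD library 1 was the lowest HFD library in 13 and lay inside or below the chow range in 10. HFD libraries 2 and 3 were both above every chow library in 12, COX3 being the exception. HFD library 1 also stood apart in its number of detected genes; without it and chow library 3, the median of the 13 was 0.45, and without HFD library 1 alone it was 0.44.

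Outside complex I each fitted difference was below that of every complex I message. CYTB, the haem-bearing core of complex III, had 4517, 6309 and 6555 CPM in the HFD libraries, against 4949, 5018 and 4947 CPM in the chow libraries. HFD library 1 was below all 3 chow libraries (log2 fold change 0.22, SE 0.14). COX1, the catalytic subunit of complex IV that reduces oxygen, had 17290.2, 22964 and 20089 CPM in the HFD libraries, against 17637, 16839 and 17394 CPM in the chow libraries. Although COX1 was the most abundant of the 13, its HFD library 1 lay inside the chow range (log2 fold change 0.22, SE 0.11, adjusted p = 0.720 in edgeR and 0.0903 in limma-voom). COX2, which receives electrons from cytochrome c, had 2289, 3131 and 2872 CPM in the HFD libraries, against 2419, 2634 and 2765 CPM in the chow libraries. COX3, the third core subunit, had 1867, 2438 and 2217 CPM in the HFD libraries, against 1779, 1889 and 2235 CPM in the chow libraries. Values of both overlapped between diets, with log2 fold changes of 0.08 (SE 0.14) and 0.14 (SE 0.14). ATP6, which forms the proton path of complex V, had 3341, 4724 and 4279 CPM in the HFD libraries, against 3499, 3957 and 4169.6 CPM in the chow libraries. ATP8, read from the same message as ATP6, had 1825, 2633 and 2686 CPM in the HFD libraries, against 1806, 2339 and 2159.5 CPM in the chow libraries. The fitted values were 0.09 (SE 0.14) for ATP6 and 0.18 (SE 0.16) for ATP8. Leaving out HFD library 2 turned COX2 to -0.017 and ATP6 to -0.027, and in that fit 11 of 13 messages were above 0; in the other 17 alternatives all 13 were.

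**Figure D2:**
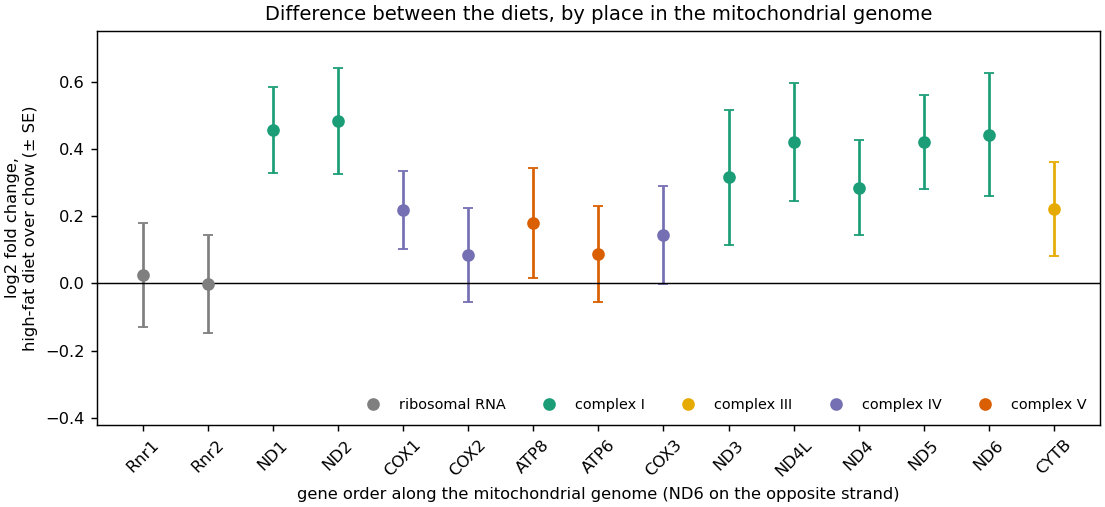
Log2 fold change (HFD minus chow) with its standard error for each mitochondrially encoded transcript, in the order of the genes along the mitochondrial genome. The ribosomal RNAs lie near 0, the complex I messages between 0.28 and 0.48, and those of complexes IV and V between 0.08 and 0.22.

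The median log2 fold change was 0.42 for the 7 complex I messages (0.28 to 0.48) and 0.14 for the 5 of complexes IV and V (0.08 to 0.22). Summed over complex I, the level was 17181, 23587 and 23833 CPM in the HFD libraries, against 15257, 16628 and 16794 CPM in the chow libraries, with no overlap. Summed over complexes IV and V it was 26613, 35890.0 and 32142 CPM in the HFD libraries, against 27140.2, 27658 and 28723 CPM in the chow libraries, with overlap. The ratio of these sums does not depend on how a library is scaled. It was 0.646, 0.657 and 0.741 in the HFD libraries, against 0.562, 0.601 and 0.585 in the chow libraries. Each HFD library lay above each chow library, and the means were 0.681 ± 0.0523 in HFD libraries and 0.583 ± 0.0196 in chow libraries (SD, n = 3 each). Leaving out each library in turn kept the HFD over chow ratio of these means between 1.118 and 1.2003. No p is given for these sums and ratios, since the genes summed were chosen with their results known.

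Of the 13 messages, 7 have a stretch of at least 75 bases and 98% identity in an annotated nuclear pseudogene, all on chromosome 1, and they include all 3 COX messages, ATP6, ND3, ND4 and ND4L. Reads from these stretches could be placed in either copy or dropped, and the deposited tables do not show which. The median log2 fold change was 0.22 over those 7 and 0.43 over the 6 with no such copy. Compared within messages that all have a copy, the ratio of ND3, ND4 and ND4L to COX1, COX2, COX3 and ATP6 was 0.189, 0.197 and 0.226 in the HFD libraries, against 0.179, 0.198 and 0.186 in the chow libraries, and the diets overlapped. A further ratio used messages with no such annotated copy, ND1, ND2, ND5 and ND6 over CYTB and ATP8. It was 1.97, 1.91 and 1.86 in the HFD libraries, against 1.59, 1.58 and 1.67 in the chow libraries, with no overlap. ATP8 lies between COX2 and ATP6, which both have a copy, and shares 43 bases with ATP6. Whether ATP8 has a copy that is not annotated was not tested. These ratios are not the same contrast split by copy. Their complex I messages differ, and the ratio without annotated copies divides by CYTB of complex III and by no complex IV message. As a share of the 13-message total, ND5 made up 8.15, 8.59 and 8.65% in the HFD libraries, against 7.84, 7.54 and 7.49% in the chow libraries, with no overlap. Other shares computed overlapped between diets. ND6 made up 2.01, 2.51 and 2.54% in the HFD libraries, against 2.25, 2.01 and 2.07% in the chow libraries. ND3 made up 0.559, 0.622 and 0.734% in the HFD libraries, against 0.695, 0.626 and 0.548% in the chow libraries. COX1 made up 35.8, 34.9 and 32.1% in the HFD libraries, against 37.3, 34.2 and 34.5% in the chow libraries, and ATP8 3.78, 4.002 and 4.296% in the HFD libraries, against 3.81, 4.74 and 4.28% in the chow libraries.

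The ribosomal RNAs of the mitochondrion, cut from the same heavy-strand precursor, had closer means under both diets than any of the 13 messages. The 12S ribosomal RNA (Rnr1) had 8239.9, 13907 and 10464 CPM in the HFD libraries, against 10281, 10992 and 10776 CPM in the chow libraries. The 16S ribosomal RNA (Rnr2) had 18277, 29948 and 22696 CPM in the HFD libraries, against 23750.0, 23462 and 23808 CPM in the chow libraries. HFD library 1 was below and HFD library 2 above every chow library for both. The log2 fold change was 0.03 (SE 0.16) for Rnr1 and -0.0020 (SE 0.14) for Rnr2, and the sign of both turned under several alternatives. The ratio of the 13 summed messages to the summed ribosomal RNAs was 1.82, 1.50 and 1.89 in the HFD libraries, against 1.39, 1.43 and 1.46 in the chow libraries. These ratios did not overlap and averaged 1.74 ± 0.207 in HFD libraries and 1.43 ± 0.0341 in chow libraries (SD, n = 3 each). Libraries were depleted of ribosomal RNA with a kit, per the labels' protocols, so the ribosomal values are what depletion left, and the part of depletion in this ratio was not tested.

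**Figure D3:**
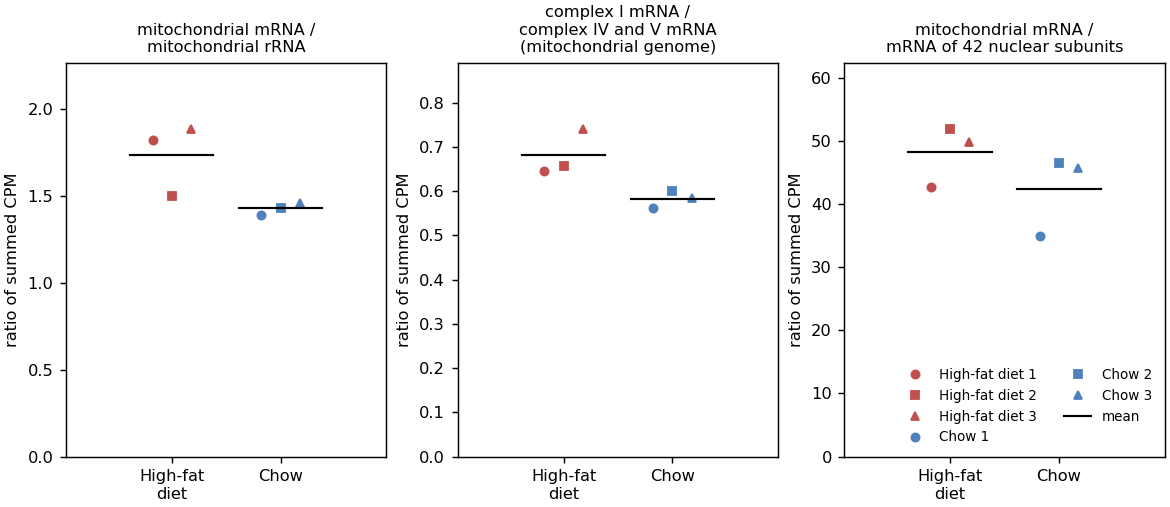
Ratios of summed TMM-scaled CPM within each library, HFD left of chow, with a bar at each mean. Messages of complex I over those of complexes IV and V, and mitochondrial messages over mitochondrial ribosomal RNA, do not overlap between diets, whereas mitochondrial over nuclear messages overlaps.

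Messages of both genomes were then set side by side in each library. The 13 mitochondrial messages summed to 48310.2, 65787 and 62530.4 CPM in the HFD libraries, against 47346, 49304 and 50464 CPM in the chow libraries, where HFD library 1 fell inside the chow range. As a share of all counts they made up 4.99, 6.27 and 6.38% in the HFD libraries, against 4.73, 4.98 and 4.98% in the chow libraries. Unlike the scaled sums, these shares did not overlap, but narrowly: HFD library 1 had 4.987% and chow libraries 2 and 3 had 4.979%. Whether the total separated the diets thus depended on the scaling. The 42 nuclear members summed to 1131, 1266 and 1253 CPM in the HFD libraries, against 1357, 1059 and 1103 CPM in the chow libraries, and chow library 1 was the highest of the 6. The ratio of mitochondrial to nuclear messages was 42.7, 52.0 and 49.9 in the HFD libraries, against 34.9, 46.6 and 45.7 in the chow libraries. HFD library 1 was below chow libraries 2 and 3, so the diets overlapped, with means of 48.2 ± 4.85 in HFD libraries and 42.4 ± 6.52 in chow libraries (SD, n = 3 each).

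Per kilobase of transcript, COX1 was the highest mitochondrial message, at 13019 CPM per kilobase under HFD and 11191 under chow, and ATP8 followed at 11674 CPM per kilobase under HFD and 10301 under chow. ND3 was the lowest at 1089.8 CPM per kilobase under HFD and 876 under chow. Between these lay ATP6 (6042 CPM per kilobase under HFD and 5691 under chow), ND1 (5358 CPM per kilobase under HFD and 3905 under chow) and CYTB (5064 CPM per kilobase under HFD and 4346 under chow). The highest nuclear member on this scale, Uqcrh, had 159 CPM per kilobase under HFD and 142 under chow, and Atp5b had 127 CPM per kilobase under HFD and 131 under chow. Every mitochondrial message was thus above every nuclear member. The per-length level of ATP8 rests on a short gene that shares bases with ATP6. Those of nuclear genes rest on the longest annotated principal transcript, or on all annotated exons together where no transcript was marked as principal.

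Of the 42 nuclear members, 41 were tested, and 25 had a log2 fold change above 0 and 16 below, with a median of 0.05 (-1.24 to 2.11). At 0 of 41, none was called by edgeR, DESeq2 or limma-voom. Diets did not overlap for 4 with HFD higher (Ndufs7, Uqcrc1, Uqcrfs1 and Cox6c) and for 1 with HFD lower (Cox8a), against 7.42% and 7.87% of all genes. These messages were sparse: 2 averaged over 100 CPM, 27 between 10 and 100 CPM, and 13 under 10 CPM. The lowest of the 6 values was in HFD library 1 for 13 of the 41 and in chow libraries 2 and 3 for 10 each. The nuclear median was 0.30 without HFD library 1 and 0.34 without chow library 1. Reads of 21 of the 42 could be shared with another gene, since 15 overlap another gene's exon and 20 have a near-identical stretch in another annotated gene. These counts are not separate: for several members, such as Atp5a1 with Haus1, the only near-identical stretch is in the gene that overlaps them.

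**Figure D4:**
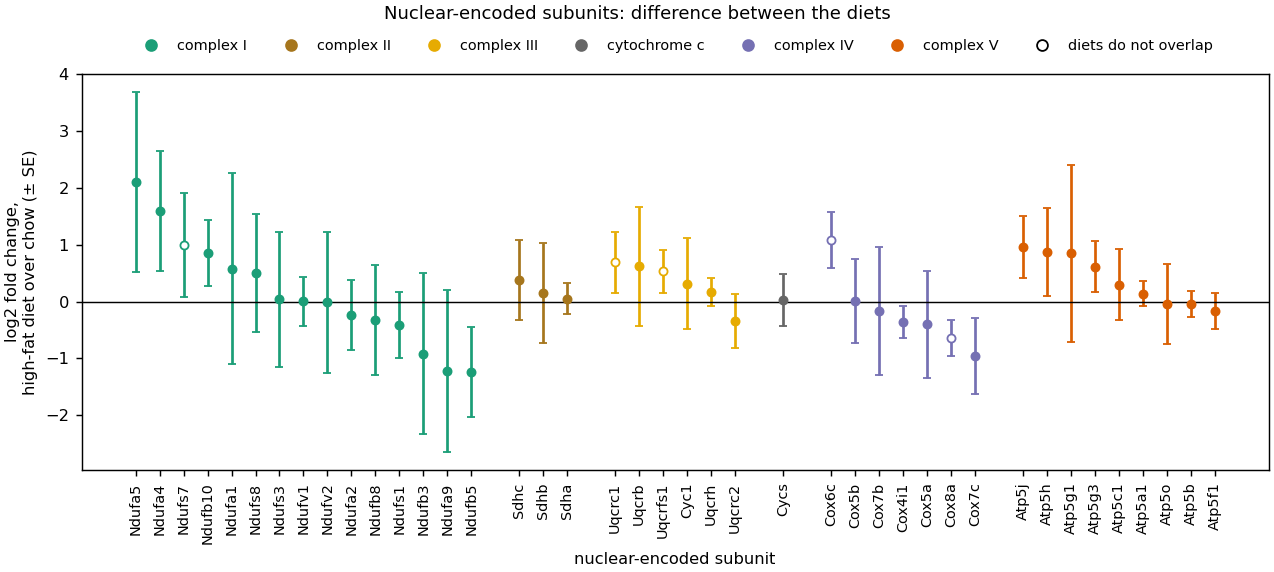
Log2 fold change (HFD minus chow) with its standard error for the 41 nuclear members tested, grouped by complex, with open points where the diets do not overlap. Points lie on both sides of 0 in complexes I, III, IV and V, and the standard errors run from 0.22 to 1.68.

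The 15 nuclear members listed under complex I, Ndufa4 included, centred on a log2 fold change of 0.01 (median), 8 above 0 and 7 below. Ndufv1, which holds the flavin that accepts electrons from NADH, was the highest of them by CPM and had 33.5, 24.5 and 28.4 CPM in the HFD libraries, against 40.5, 15.6 and 30.0 CPM in the chow libraries. Its range under HFD lay inside that under chow (log2 fold change 0.01, SE 0.43). Ndufb10, an accessory subunit of the membrane arm, had 23.7, 18.4 and 32.8 CPM in the HFD libraries, against 21.1, 15.2 and 5.04 CPM in the chow libraries. Chow library 3 was the low value there, and the other values overlapped (log2 fold change 0.86, SE 0.58, adjusted p = 0.869 in edgeR's quasi-likelihood test). Ndufb5, also accessory, had 2.08, 13.1 and 4.09 CPM in the HFD libraries, against 12.97, 16.7 and 15.8 CPM in the chow libraries. HFD library 2 overlapped the chow range and the other HFD libraries were below it (log2 fold change -1.24, SE 0.79, adjusted p = 0.837 in the same test); Ndufb5 shares 616 bases with Mrpl47 on the opposite strand. Ndufa4, first assigned to complex I and later found to belong to complex IV, had 3.05, 16.4 and 8.39 CPM in the HFD libraries, against 2.26, 2.79 and 4.18 CPM in the chow libraries. Only HFD libraries 2 and 3 were above its chow range (log2 fold change 1.59, SE 1.05). Ndufs7, which carries the last iron-sulphur cluster before ubiquinone, had 6.36, 11.2 and 9.90 CPM in the HFD libraries, against 5.39, 5.82 and 2.58 CPM in the chow libraries, without overlap but with a standard error of 0.92 around a log2 fold change of 1.00. The other 10 did not exceed 32.1 CPM in any library, and all overlapped between diets.

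Complex II, succinate dehydrogenase, has no mitochondrially encoded subunit. Sdha, its flavin subunit, had 51.1, 67.6 and 61.0 CPM in the HFD libraries, against 57.7, 50.9 and 64.6 CPM in the chow libraries. The diets overlapped with a small standard error for this set (log2 fold change 0.05, SE 0.27). Sdhb, the iron-sulphur subunit, had 5.45, 9.06 and 8.50 CPM in the HFD libraries, against 5.01, 4.36 and 11.3 CPM in the chow libraries. Sdhc, a membrane anchor, had 5.77, 14.1 and 18.8 CPM in the HFD libraries, against 9.90, 12.9 and 6.99 CPM in the chow libraries. Both were low and overlapped between diets, with log2 fold changes of 0.15 (SE 0.89) and 0.38 (SE 0.70). Sdhd, the other anchor, was the member that failed the filter. It had 0 counts in all 3 HFD libraries, against 50, 9 and 0 counts in the chow libraries, and was not tested.

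For complex III, 5 of the 6 nuclear members were above 0 and 1 below, with a median of 0.42. Uqcrfs1, the Rieske iron-sulphur protein, had 39.6, 31.1 and 41.1 CPM in the HFD libraries, against 17.3, 30.9 and 29.2 CPM in the chow libraries. HFD library 2 and chow library 2 differed by under 1 CPM, so the separation was narrow (log2 fold change 0.53, SE 0.39, adjusted p = 0.891 in edgeR). Uqcrc1, a core subunit on the matrix side, had 19.9, 25.4 and 20.1 CPM in the HFD libraries, against 16.5, 16.6 and 7.505 CPM in the chow libraries. Its diets did not overlap either (log2 fold change 0.69, SE 0.54, adjusted p = 0.909 in edgeR). Uqcrc2, the companion core subunit, had 12.8, 25.6 and 35.0 CPM in the HFD libraries, against 29.4, 19.7 and 44.1 CPM in the chow libraries. It overlapped and its fitted value was of the opposite sign (log2 fold change -0.34, SE 0.47); without the pair of libraries that stood apart, that value was 0.31. Uqcrh, the hinge protein between cytochromes c1 and c, had 71.9, 94.2 and 94.4 CPM in the HFD libraries, against 68.0, 93.5 and 70.8 CPM in the chow libraries, with overlap (log2 fold change 0.17, SE 0.25). Cytochrome c itself, Cycs, had 20.05, 23.9 and 23.0 CPM in the HFD libraries, against 24.9, 14.8 and 26.0 CPM in the chow libraries. HFD values lay inside the chow range (log2 fold change 0.03, SE 0.46), and 946 bases of Cycs recur at 99.9% identity in Gm10053.

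Complex IV held both the nuclear member with the smallest p and the single one that was lower without overlap. Cox6c, a small accessory subunit, had 35.4, 19.6 and 26.9 CPM in the HFD libraries, against 10.1, 12.3 and 16.3 CPM in the chow libraries. All HFD libraries were above all chow libraries, with means of 27.3 ± 7.93 CPM in HFD libraries and 12.9 ± 3.16 CPM in chow libraries (SD, n = 3 each) (log2 fold change 1.08, SE 0.50, unadjusted p = 0.0478, adjusted p = 0.648 in edgeR's quasi-likelihood test). Its annotation shares 250 bases with Vps13b on the opposite strand, and both cannot be told apart there if counting ignored strand. Cox8a, a small membrane subunit, had 28.1, 30.9 and 37.2 CPM in the HFD libraries, against 52.8, 48.6 and 49.4 CPM in the chow libraries. Every HFD library was below every chow library, with means of 32.1 ± 4.66 CPM in HFD libraries and 50.3 ± 2.24 CPM in chow libraries (SD, n = 3 each) (log2 fold change -0.65, SE 0.32, unadjusted p = 0.0597, adjusted p = 0.678 in the same test). Cox4i1, the ubiquitous form of a regulatory subunit, had 70.9, 74.7 and 58.9 CPM in the HFD libraries, against 107, 54.4 and 99.9 CPM in the chow libraries. Chow libraries 1 and 3 were the high values and chow library 2 the lowest of all (log2 fold change -0.36, SE 0.28). Cox7c had 15.2, 11.4 and 10.3 CPM in the HFD libraries, against 16.8, 6.22 and 48.8 CPM in the chow libraries. One value, in chow library 3, carried its negative sign (log2 fold change -0.96, SE 0.67), and without that library the log2 fold change was 0.10. Of the 7 nuclear members listed under complex IV, which leave out Ndufa4, 2 were above 0 and 5 below, with a median of -0.36.

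In complex V, 6 of 9 nuclear members were above 0 and 3 below, with a median of 0.30. Atp5b, the catalytic beta subunit, had 277, 249.9 and 203 CPM in the HFD libraries, against 328, 248 and 176 CPM in the chow libraries. Atp5a1, the alpha subunit, had 192, 172 and 157 CPM in the HFD libraries, against 205, 131 and 138 CPM in the chow libraries. These were the most abundant nuclear members, and both overlapped between diets, with log2 fold changes of -0.04 (SE 0.22) and 0.14 (SE 0.22). Atp5j, coupling factor 6 of the stalk, had 32.2, 15.9 and 29.5 CPM in the HFD libraries, against 17.4, 6.69 and 15.9 CPM in the chow libraries. Chow library 1 lay just above HFD library 2, which gave overlap (log2 fold change 0.96, SE 0.55, adjusted p = 0.775 in edgeR), and 397 bases of Atp5j are shared with Gabpa on the opposite strand. Atp5h, subunit d of the stalk, had 7.27, 25.8 and 15.9 CPM in the HFD libraries, against 10.3, 14.0 and 2.35 CPM in the chow libraries (log2 fold change 0.88, SE 0.77). Subunit c, which forms the rotating ring, is encoded by 3 genes whose mature proteins are identical. Atp5g3 had 48.5, 27.7 and 37.1 CPM in the HFD libraries, against 14.2, 19.4 and 40.4 CPM in the chow libraries. Atp5g1 had 5.45, 3.38 and 1.45 CPM in the HFD libraries, against 2.00, 2.79 and 0.917 CPM in the chow libraries. Atp5g2, which is outside the list, had 1.36, 4.66 and 3.28 CPM in the HFD libraries, against 8.52, 8.03 and 4.81 CPM in the chow libraries. The first pair overlapped between diets (0.61, SE 0.45 and 0.85, SE 1.55), whereas Atp5g2 was below every chow library in all HFD libraries (-1.20, SE 1.13, adjusted p = 0.939 in edgeR).

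Promoters of nuclear members are shown for Cycs, a textbook target of nuclear respiratory factor 1 (NRF1), and for Cox8a, the member lower without overlap. Sequences are from RefSeq (GRCm38.p6), from 250 bases before to 50 after the gene start, minus strand, 5′ to 3′, with motif matches in capitals. The Cycs window is chr6:50566520-50566819 and holds 1 match to an NRF1-type motif. The Cox8a window is chr19:7217567-7217866 and holds 2 matches to an ETS-type motif of the kind bound by GABP.
Cycs: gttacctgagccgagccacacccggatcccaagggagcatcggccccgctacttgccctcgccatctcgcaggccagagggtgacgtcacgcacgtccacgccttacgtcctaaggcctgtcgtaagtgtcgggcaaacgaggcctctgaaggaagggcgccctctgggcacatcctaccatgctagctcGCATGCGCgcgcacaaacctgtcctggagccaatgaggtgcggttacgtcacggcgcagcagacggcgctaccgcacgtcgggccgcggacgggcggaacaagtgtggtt
Cox8a: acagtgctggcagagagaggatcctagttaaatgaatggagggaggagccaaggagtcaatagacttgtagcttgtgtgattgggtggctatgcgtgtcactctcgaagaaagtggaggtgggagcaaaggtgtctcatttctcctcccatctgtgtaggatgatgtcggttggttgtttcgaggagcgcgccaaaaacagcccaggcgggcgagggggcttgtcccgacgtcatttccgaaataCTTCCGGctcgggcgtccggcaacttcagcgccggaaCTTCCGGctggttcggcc
The motifs searched on both strands were GCGCATGC for NRF1 and CCGGAAG for ETS factors, and their matches did not overlap in the windows shown. A promoter was found for 33 of the 42 nuclear members. The NRF1-type motif was in 3 of them (9.09%; Cycs, Sdhb and Uqcrc1), against 3.05% of 27025 genes with a promoter. The ETS-type motif was in 8 (24.2%), including Cox8a, Atp5j, Sdhb and Uqcrh, against 9.93% of genes. A match is a run of letters and does not show that a factor is bound.

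The spread between libraries set how small a difference could be seen. The biological coefficient of variation is edgeR's estimate of the spread between libraries beyond counting error. It is fitted to both diets together and draws on genes of similar abundance, so it is not the observed spread of either diet. It was 16.2 to 20.4% for the mitochondrial messages and 21.6 to 131% for the nuclear members, with medians of 17.3 and 62.0%. The observed SD of each mitochondrial message was larger in HFD than in chow libraries. For CYTB it was 1113 CPM in HFD libraries and 40.6 CPM in chow libraries. For COX3 it was 288 CPM in HFD libraries and 238 CPM in chow libraries. Standard errors of nuclear log2 fold changes had a median of 0.70, against 0.14 for the mitochondrial messages. The 5 nuclear members that averaged at least 50 CPM had log2 fold changes between -0.36 and 0.17 with a median of 0.05. Of the mitochondrial messages, 11 averaged at least 1000 CPM. The 69 nuclear genes of that level centred on a log2 fold change of -0.02 with a median coefficient of 17.3%. In edgeR, 1 of them was called higher and 3 lower, and at an unadjusted p under 0.05, 12 were higher and 15 lower. For most nuclear members a difference the size of that in ND1 was smaller than 1 standard error.

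**Figure D5:**
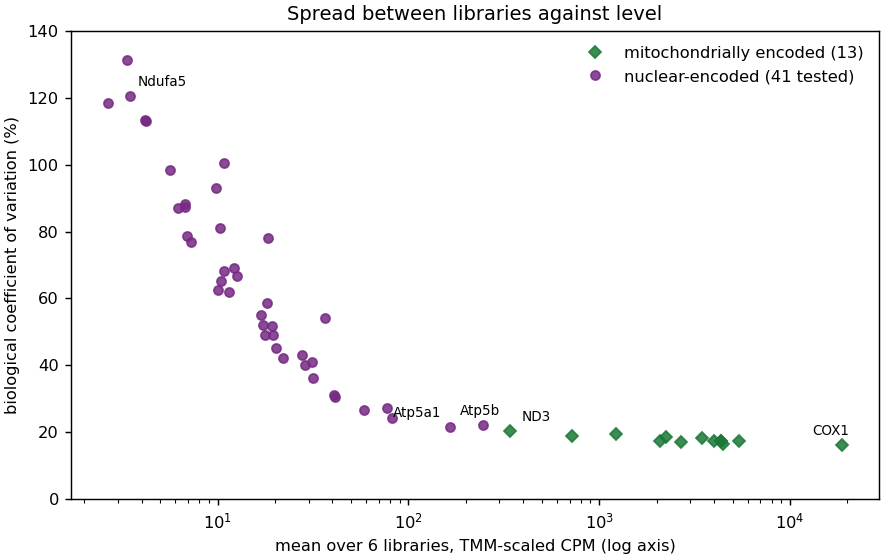
Biological coefficient of variation (%), as fitted by edgeR to both diets together, against mean TMM-scaled CPM (log axis). Points are the 13 mitochondrially encoded and the 41 tested nuclear members. The coefficient is at most 20.4% at the abundance of the mitochondrial messages and reaches 131% among nuclear members of a few CPM.

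Further genes of the pathway were taken from lists. Of 36 other nuclear subunits, 34 were tested and 0 called by edgeR, DESeq2 or limma-voom, with 0 at an unadjusted p under 0.05 in edgeR, 18 above 0, 16 below and a median of 0.03. Cox7a2l, known for joining complexes III and IV, had 25.0, 42.5 and 54.3 CPM in the HFD libraries, against 76.6, 56.8 and 50.6 CPM in the chow libraries, with overlap (log2 fold change -0.59, SE 0.34). Diets did not overlap for 2 of the 34 with HFD higher and 2 with HFD lower, against 7.42% and 7.87% of all genes. The higher ones were Ndufa11, an accessory subunit of complex I (log2 fold change 1.65, SE 1.199), and Uqcrq, a small subunit of complex III (log2 fold change 1.44, SE 0.98). The lower ones were Atp5g2 and Atp5j2, subunit f of complex V (log2 fold change -1.46, SE 0.96, adjusted p = 0.852 in edgeR). Of 10 isoforms typical of muscle fibres, testis or other tissues, Atp5l2-ps was not matched to a gene ID, and 1 of the others passed the filter. It was Cox7a1, the isoform of heart and skeletal muscle, with 8.37, 2.87 and 4.20 CPM in the HFD libraries, against 14.5, 16.98 and 14.8 CPM in the chow libraries. Every HFD library was below every chow library (log2 fold change -1.58, SE 0.74, unadjusted p = 0.0519, adjusted p = 0.654 in edgeR), as was the sum of myofibre markers; the part of residual fibre RNA in it was not tested. Cox6a2, another fibre isoform, had 0 counts in all 6 libraries.

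Of 46 assembly factors, 36 were tested and 0 called by edgeR, with 0 at an unadjusted p under 0.05. Of these, 21 were above 0 and 15 below, with a median of 0.09. Diets did not overlap for 2 of the 36 with HFD higher and 0 with HFD lower, against 7.42% and 7.87% of all genes. The factors with the smallest p were Ecsit, Timmdc1 and Foxred1, which act in complex I assembly. Their log2 fold changes were -3.10 (SE 1.69), -1.78 (SE 1.06) and -1.45 (SE 0.91), none called (adjusted p of at least 0.748 in edgeR). Each overlapped between diets, and Ecsit had 18, 10 and 2 counts in the HFD libraries, against 93, 16 and 171 in the chow libraries. With limma-voom 0 were called, and DESeq2 called 1, the complex III factor Uqcc3, which had 0 counts in each HFD library and 2, 39 and 108 in the chow libraries (adjusted p = 0.0483) and did not pass edgeR's filter. Of 31 genes for making and processing mitochondrial RNA, 29 were tested and 0 called by edgeR, DESeq2 or limma-voom, with 1 (Fastk) at an unadjusted p under 0.05 in edgeR, 10 above 0, 19 below and a median of -0.35. Lrpprc, which stabilises mitochondrial messages, had 24.8, 23.9 and 17.7 CPM in the HFD libraries, against 41.6, 29.0 and 37.4 CPM in the chow libraries. Its HFD libraries were all below its chow libraries (log2 fold change -0.70, SE 0.39, adjusted p = 0.757 in edgeR). Fastk, whose mitochondrial form is needed for the ND6 message, had 2.92, 1.02 and 4.47 CPM in the HFD libraries, against 6.83, 8.49 and 20.8 CPM in the chow libraries. It did not overlap either (log2 fold change -2.10, SE 0.97, adjusted p = 0.650 in edgeR). Grsf1, an RNA-binding protein of mitochondrial RNA granules, had 89.4, 55.3 and 43.4 CPM in the HFD libraries, against 33.3, 57.2 and 35.5 CPM in the chow libraries (log2 fold change 0.58, SE 0.35, adjusted p = 0.805 in edgeR). Within this list, diets did not overlap for 1 of 29 genes with HFD higher and 5 with HFD lower, against 7.42% and 7.87% of all genes.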

How the data were processed

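Satellite cell RNA was sequenced as 75-base single reads after ribosomal RNA depletion, per the labels' protocols. Each library has 1 deposited table of whole-number counts per Entrez gene ID, made by the authors with Bowtie2 and featureCounts on GRCm38 (mm10), per the submitters' processing notes. Versions, annotation, strand and multi-mapping settings are not given in the sources used here. Symbols came from RefSeq (GRCm38.p6), which matched 25275 of 27179 IDs; Atp5f1 here is the gene RefSeq calls Atp5pb. Lengths, overlaps and copies came from GENCODE M21 and blastn 2.17.0.

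Counts were filtered (filterByExpr, minimum count 10), TMM-scaled and tested with edgeR 4.0.16 quasi-likelihood F tests (R 4.3.3, two-sided), 3 HFD against 3 chow libraries, with Benjamini-Hochberg adjustment and calls at 0.05. Standard errors are the log2 fold change over the root of F. DESeq2 1.42.0, limma-voom 3.58.1, other scalings, filters, a length correction, left-out libraries and a replicate block were alternatives. The code was tested on simulated counts with known changes, called at an adjusted p under 0.05 in edgeR. It recovered 32 of 500 changes of 2-fold and 181 of 500 of 4-fold. Among genes of at least 50 CPM it recovered 26 of 113 and 116 of 125. Of 222 simulated calls, 9 were false. Counts of every 2 libraries differed by more than sampling noise, so none was merged.

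The members and lists were chosen with earlier results of these data known. Named in full are all mitochondrial messages and ribosomal RNAs, members called by any tool, subunit c genes, and per nuclear complex the 3 smallest unadjusted p and the highest mean CPM; per other list, the 3 smallest p and any call; 1 such gene and 1 marker list are not reported here. Beyond that rule, Ndufs7, Sdhd, Atp5a1, Cox6a2, Uqcc3, Ndufa11, Uqcrq and markers besides the most abundant were named after their values were seen.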

Additional observations from a re-analysis of the deposited data

How the results depend on the processing

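Directions and calls were recomputed under 18 alternatives. The 34 genes called became 163 with no filter, 280 with DESeq2, 99 with limma-voom, 17 with a length correction, 1 without both libraries that stood apart, and 9 to 44 with each library left out in turn (fewer by over 1.5 times without any 1 of them except HFD library 3). Members called were 0 in 16 alternatives (0 to 0 with each library left out), 1 with DESeq2 and 3 with limma-voom. With each library left out, the median log2 fold change was 0.20 to 0.44 for the mitochondrial messages and 0.019 to 0.34 for the nuclear members. The HFD over chow ratio of means was then 1.13 to 1.31 for summed mitochondrial messages, 0.989 to 1.13 for summed nuclear members, 1.04 to 1.202 for mitochondrial over nuclear, 1.16 to 1.30 for messages over ribosomal RNA and 1.118 to 1.2003 for complex I over complexes IV and V; the last pair were chosen after seeing the data.

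Of 846 named-gene values under alternatives, 816 kept direction and call, 4 gained a call and 26, in 11 genes, changed sign; the cause was not tested. Rnr2 turned to 0.016 with upper quartile factors, 0.015 with no filter and 0.17 without both libraries that stood apart. Rnr1 turned to -0.0082 with limma-voom and -0.0076 with the replicate block. Without both libraries, Ndufv1 turned to -0.074 and Uqcrc2 to 0.31; with the length correction Atp5b turned to 0.026. With each library left out, log2 fold changes spanned -0.29 to 0.34 (Ndufv1), -0.21 to 0.17 (Rnr2), -0.017 to 0.22 (COX2), -0.027 to 0.23 (ATP6), -0.046 to 0.17 (Sdha), -0.19 to 0.17 (Cycs), -0.19 to 0.20 (Rnr1), -0.24 to 0.20 (Atp5b), -0.092 to 0.71 (Sdhb) and -1.41 to 0.10 (Cox7c).

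Same-numbered libraries of both diets did not deviate together (correlations 0.02, 0.03 and -0.03), so numbers were not taken as pairs. With the replicate block, 45 genes and 0 members were called, with medians of 0.27 for mitochondrial messages and 0.17 for nuclear members. With 3 libraries per diet, the standard errors of the nuclear members (median 0.70) limit what their fold changes show.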
